A study of Mus musculus with 3 samples.

Results

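Neutrophils that carried interferon-induced transcripts were examined in adult mouse liver after irreversible electroporation (IRE), a tissue injury made by electric pulses that permeabilize cell membranes. A barcode was taken as a cell when it held at least 200 detected genes and was gated as a neutrophil when at least 2 of the 6 neutrophil genes Retnlg, Cxcr2, Csf3r, Stfa2l1, Mrgpra2b and Il1f9 had a unique molecular identifier (UMI). A gated cell was a member when at least 2 of the 7 interferon-induced genes Ifit1, Ifit2, Ifit3, Isg15, Rsad2, Herc6 and Irf7 had a UMI. By this rule 514 of 2439 gated neutrophils, out of 25263 cells in all, were members, and 1288 gated neutrophils with none of the 7 genes served as comparison cells. Because the members were chosen by their measured UMIs, the 13 genes of the rule are given as a description only.

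Livers of 3 groups of C57BL/6 mice were studied with Drop-seq, in which droplets pair 1 cell with 1 barcoded bead, with 1 library per group. The control group had sham surgery and was collected after 1 day, and the other groups received IRE of 8 pulses of 50 ms with 1 s between pulses and were collected at 1 day or at 7 days. Each library pooled 3 livers, from which a 4 mm punch of the injured area, or of the same area without injury, was dissociated. With 1 pooled library per group there is no replicate, so that no test of a condition is possible, and all intervals cover counting error only.

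Neutrophils are short-lived granulocytes that leave the blood for injured tissue, where they release granule proteins, reactive oxygen and chemokines. Type I interferons bind the receptor of Ifnar1 and Ifnar2, whose kinases Jak1 and Tyk2 activate transcription factors. A complex that holds Stat2 and Irf9 then binds the interferon-stimulated response element (ISRE) upstream of antiviral genes, whereas interferon gamma acts through a receptor of its own and strongly induces the guanylate-binding proteins. The 7 genes of the rule belong to the first programme: Ifit1, Ifit2 and Ifit3 bind viral RNA or its partners, Isg15 is a ubiquitin-like modifier, Rsad2 makes an antiviral nucleotide, Herc6 is the ligase for Isg15 in the mouse, and Irf7 is a transcription factor that amplifies interferon production.

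The sequences upstream of these genes are shown because the members were chosen by transcripts that this element is known to drive. In the RefSeq promoter table of build GRCm38.p6, the 250 bases before the start of each gene were searched on both strands for the ISRE core GAAANNGAAA. Of the 7 genes, 4 held a match, against 936 of 27025 genes of the table, or 3.46%. The 170 bases before the start are shown for these 4, 5′ to 3′ on the strand of the gene, with matches in capitals.
Ifit1 (chr19:34640719-34640888, plus strand): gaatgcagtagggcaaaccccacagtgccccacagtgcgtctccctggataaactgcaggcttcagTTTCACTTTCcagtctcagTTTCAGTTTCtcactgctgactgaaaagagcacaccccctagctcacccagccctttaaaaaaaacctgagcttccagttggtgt
Ifit3 (chr19:34583359-34583528, plus strand): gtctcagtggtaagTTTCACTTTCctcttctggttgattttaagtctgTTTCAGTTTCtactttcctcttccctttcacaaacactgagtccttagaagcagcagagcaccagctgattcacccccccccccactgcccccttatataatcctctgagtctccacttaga
Isg15 (chr4:156200819-156200988, minus strand): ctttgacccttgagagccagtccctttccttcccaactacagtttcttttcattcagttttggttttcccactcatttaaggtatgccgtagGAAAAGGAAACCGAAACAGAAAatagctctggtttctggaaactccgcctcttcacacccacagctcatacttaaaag
Rsad2 (chr12:26456453-26456622, minus strand): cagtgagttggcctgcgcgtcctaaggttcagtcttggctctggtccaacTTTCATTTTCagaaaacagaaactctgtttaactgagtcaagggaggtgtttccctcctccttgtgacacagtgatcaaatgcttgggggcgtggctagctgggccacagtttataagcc
Ifit1 and Ifit3 each held 2 separate matches in reverse orientation, Isg15 held 3 that overlap in 1 run, and Rsad2 held 1. Ifit2, Herc6 and Irf7 had no match in this window, and none of the 6 neutrophil genes of the rule had one. A match is a description of the letters and not a bound site.

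The libraries differed in depth and in content. The files held 10032574, 8563287 and 4580021 UMIs for control, IRE 1 day and IRE 7 days, with a median of 595, 509 and 456.5 UMIs per cell. Mitochondrial transcripts made up 20.5%, 21.7% and 4.10% of the UMIs of cells. Between 202 and 738 barcodes occurred in both libraries of a pair, among them 31 of the 473 members at 7 days and no member of the other libraries. The gate held 309 cells in control, 47 at 1 day and 2083 at 7 days. All 47 gated cells at 1 day had at least 2 markers of another cell class, as did 97.0% of all cells of that library, so that the library at 1 day is given by its values and little rests on it.

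Neutrophil identity was checked on genes that the gate did not use. In members at 7 days, S100a8 and S100a9, the subunits of calprotectin, were detected in 98.5% and 96.6% of cells, Lcn2, an iron-trapping granule protein, in 42.3% and Mmp9, a gelatinase, in 30.2%. In comparison cells the shares were 98.2%, 96.6%, 44.7% and 26.1%. Together with Ly6g, these genes made up 5.21% of the UMIs of members and 7.44% of those of comparison cells. They made up 1.11% in cells of the same library chosen for having no neutrophil gene of the rule, but 8.34% in its barcodes under 200 genes. Retnlg was detected in 37.3% of endothelial cell and 40.6% of hepatocyte barcodes at 7 days, against 6.77% and 9.40% in control. Neutrophil RNA was thus also found outside the gate, and its part in the gated cells was not tested. Ly6g itself, the surface marker of mouse neutrophils, was close to absent from the counts, with 3 UMIs in members and 25 in comparison cells. In 82.7% of members and 86.8% of comparison cells, these neutrophil UMIs outnumbered those of macrophage, Kupffer cell and classical monocyte markers, as they also did in 52.6% of the 3541 cells of that library outside the gate.

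Most members came from the library at 7 days. Members made up 35 of 309 gated cells in control (11.3%, exact Clopper-Pearson 95% interval 8.02 to 15.4%), 6 of 47 at 1 day (12.8%, 4.83 to 25.7%) and 473 of 2083 at 7 days (22.7%, 20.9 to 24.6%). Cells with 4 or more of the 7 genes numbered 2 in control, 2 at 1 day and 128 at 7 days, where they were 6.14% of the gate. These shares depend on depth, because a deeper cell has more chances to show a second gene. When cells were thinned to 300 UMIs before the rule was applied, members were 7 of 156 cells in control (4.49%, 1.82 to 9.03%), 1 of 16 at 1 day (6.25%, 0.158 to 30.2%) and 165 of 1322 at 7 days (12.5%, 10.7 to 14.4%). The share was thus higher at 7 days than in control with and without thinning, by more than counting error, and the value at 1 day could not be told from either. Without cells over 20% mitochondrial UMIs, members were 24 of 158 gated cells in control (15.2%, 9.98 to 21.8%). At 7 days they were then 462 of 2028 (22.8%, 21.0 to 24.7%), so that the intervals overlapped under this setting.

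**Figure D1:**
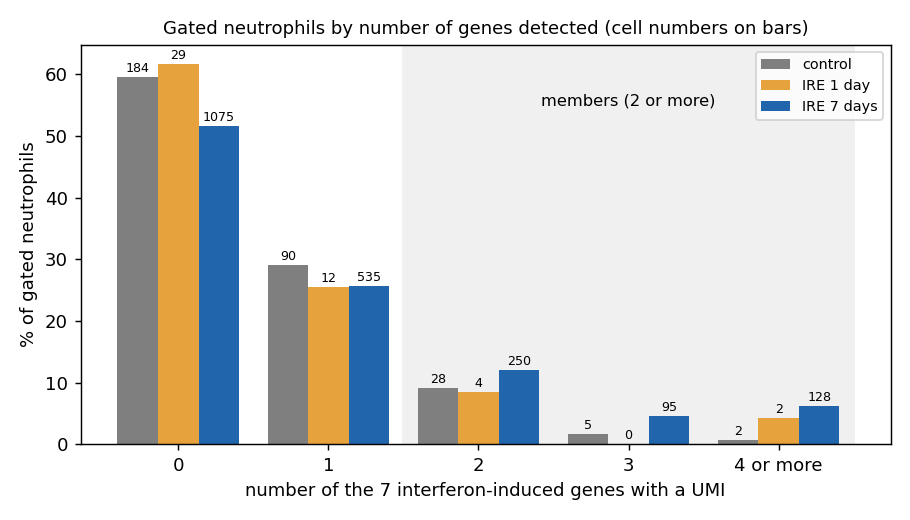
Share of gated neutrophils (vertical axis, %) by the number of the 7 interferon-induced genes with a UMI (horizontal axis) in the 3 libraries, with cell numbers above the bars. Cells with 4 or more genes were 6.14% of the gate at 7 days (128 cells) and 0.647% in control (2 cells).

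The higher level at 7 days was not limited to neutrophils. Summed over the 7 genes, gated neutrophils held 702 counts per 1000000 UMIs (CPM) in control and 2500 at 7 days. Cells without any neutrophil gene of the rule held 553 in control and 2498 at 7 days. Thinned to 300 UMIs, 12.5% of gated neutrophils and 12.3% of these other cells had at least 2 of the 7 genes at 7 days, against 3.28% and 1.80% in control. Cells with at least 2 classical monocyte markers held 2661 CPM at 7 days and cells with at least 2 macrophage markers held 2463. T cell barcodes were lower, at 1225 (95% interval 909 to 1615), as were the 12 plasmacytoid dendritic cell barcodes (472, 97.3 to 1379) and the 9 B cell barcodes (779, 161 to 2277), each with 3 UMIs of these genes. Barcodes under 200 genes, which can hold free RNA or cells of low depth, stood at 2502, so that the pooled level in the neutrophil gate was no higher than in these barcodes. They also held 10339.5 CPM of Retnlg, against 8776 in the gate, and cannot serve as barcodes that lack neutrophil RNA. Members are therefore described by how these transcripts were spread over the cells of the gate.

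**Figure D2:**
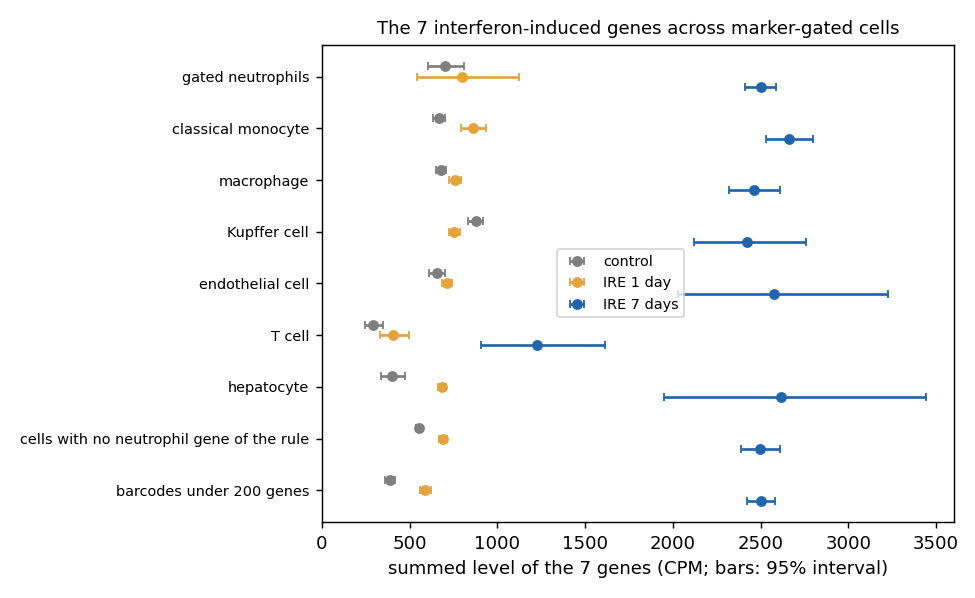
Summed level of the 7 genes (horizontal axis, CPM) in cells gated by markers and in barcodes under 200 genes, with 95% Poisson intervals as bars. At 7 days most of the classes drawn stood near the 2500 of gated neutrophils, and T cells stood lower at 1225; B cells and plasmacytoid dendritic cells, with 3 UMIs each, are not drawn.

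The makeup of these UMIs was also read by class. Ifit1 made up 11.4% (10.3 to 12.6%) of the UMIs of the 7 genes in gated neutrophils at 7 days, 7.38% (5.94 to 9.04%) in macrophage barcodes and 11.7% (10.7 to 12.7%) in barcodes under 200 genes. Irf7 made up 10.5% (9.49 to 11.7%), 14.5% (12.5 to 16.7%) and 8.59% (7.72 to 9.53%). Rsad2 made up 30.9%, 27.9% and 34.8%. The part of free RNA in the members was not tested.

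Within the gate the 7 genes occurred together. Each gene was measured in cells chosen by the other 6, so that its own counts were not used in the choice. All gated cells chosen in this way are members, so that the ratios describe the members and were not tested. At 7 days, Ifit1 stood at 816 CPM in the 421 cells with at least 2 of the other genes and at 83.7 in the 1124 cells with none, a ratio of 9.75 (95% interval 7.20 to 13.4). The ratio was 8.26 (6.38 to 10.8) for Ifit2, 8.21 (6.27 to 10.9) for Ifit3, 7.96 (4.30 to 15.9) for Herc6, 6.79 (5.45 to 8.50) for Isg15, 6.77 (5.79 to 7.93) for Rsad2 and 3.82 (2.93 to 5.02) for Irf7. All 7 intervals lay above 1. In control, where 19 to 34 cells were chosen in this way, the interval lay above 1 for Ifit3 (6.62, 1.81 to 26.4) and Rsad2 (3.59, 1.52 to 7.91) and included 1 for the other 5 genes. Among cells at 7 days without neutrophil genes the same measure ran from 4.06 for Irf7 to 17.8 for Ifit2, so that such co-detection was also seen outside the gate.

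Each of the 7 genes was found in part of the members. At 7 days Rsad2 was detected in 65.1% of members (737 UMIs, 2212 CPM), Isg15 in 54.1% (442 UMIs, 1327 CPM), Ifit3 in 43.8%, Ifit2 in 41.9%, Irf7 in 37.8%, Ifit1 in 36.8% and Herc6 in 13.7%. In the 35 members of control, Rsad2 stood at 752 CPM (27 UMIs) and Isg15 at 334 (12 UMIs), and in the 6 members at 1 day at 479 (4 UMIs) and 359 (3 UMIs). Of the 250 members with exactly 2 genes, 38 had Isg15 with Rsad2, 28 had Rsad2 with Irf7 and 24 had Ifit2 with Rsad2, whereas 6 members held all 7 genes. Among the neutrophil genes of the rule, Retnlg, a secreted resistin-like protein, stood at 6523 CPM in members and 10241 in comparison cells, and Cxcr2, the receptor for neutrophil chemokines, at 2146 and 2622.

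Interferon genes that the rule did not use were higher in members. The lists for antiviral effectors, Isg15 conjugation, other type I genes and guanylate-binding proteins with related GTPases held 101 such genes in the files, and their sum was 35722 CPM in members at 7 days and 17912 in comparison cells (ratio 1.99, 95% interval 1.94 to 2.05). It was 22032 and 13452 in control (1.64, 1.51 to 1.78) and 18319 and 12467 at 1 day (1.47, 1.19 to 1.81). Mitochondrial transcripts were 13.4% of UMIs in members and 24.3% in comparison cells in control, 18.4% and 25.5% at 1 day and 4.51% and 4.37% at 7 days, and their part in these ratios was not tested. Of the 68 listed genes with at least 50 UMIs at 7 days, 46 were at least 2-fold higher in members and 0 were at least 2-fold lower, with a median ratio of 2.64. Over all 2617 genes tested outside the rule, the median ratio was 0.998, 4.13% (108 genes) were at least 2-fold higher and 0.841% (22 genes) at least 2-fold lower. These genes are counted in the same cells as the rule, so that the figures describe the members and were not tested. With 1 library per group, a fold and not a p-value defined these calls. In the short lists below, a count of 0 past 2-fold is close to the shares over all genes.

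**Figure D3:**
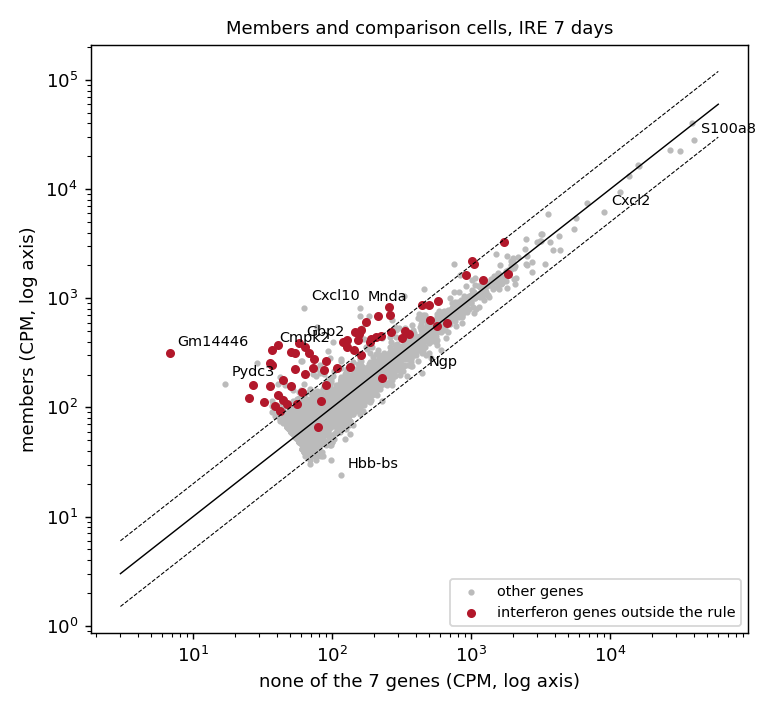
Level of each gene with at least 50 UMIs at 7 days in comparison cells (horizontal axis) and members (vertical axis), in CPM on log axes, with the 13 rule genes left out. The solid line marks equal levels and the dashed lines 2-fold, and the interferon genes outside the rule (red) lie mostly above the upper dashed line.

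At 7 days the summed level of these genes was higher with each further rule gene detected. It was 17912 CPM in cells with 0 of the 7 genes, 21416 with 1, 26936 with 2, 30116 with 3 and 53391 with 4 or more, with intervals that did not overlap. The median cell held 6, 8, 11, 13 and 21.5 of the 101 genes, while the median depth went from 467 to 672 UMIs. Cells just outside the rule (535 cells with 1 gene) and just inside it (250 cells with 2) thus differed by less than cells with 3 and with 4 or more. In control the sum was 13452 with 0 genes, 16902 with 1, 21305 with 2 and 21807 with 3, of which the last pair had overlapping intervals. At 1 day it was 12467 with 0 genes and 11267 with 1, with overlapping intervals, and 16688 with 2 (4 cells). Members held 26.6% of all UMIs of the gate at 7 days and 40.3% of the UMIs of these genes, and the 128 cells with 4 or more held 18.6%. Single genes were read in the same way. Cmpk2, a nucleotide kinase next to Rsad2 in the genome, stood at 37.2, 94.5, 157, 307 and 652 CPM over the same steps. Cxcl10 stood at 62.6, 119, 309, 261 and 2004, and Stat2 at 42.3, 82.3, 176, 92.1 and 272. Both were lower with 3 genes (17 and 6 UMIs) than with 2, but with overlapping intervals.

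**Figure D4:**
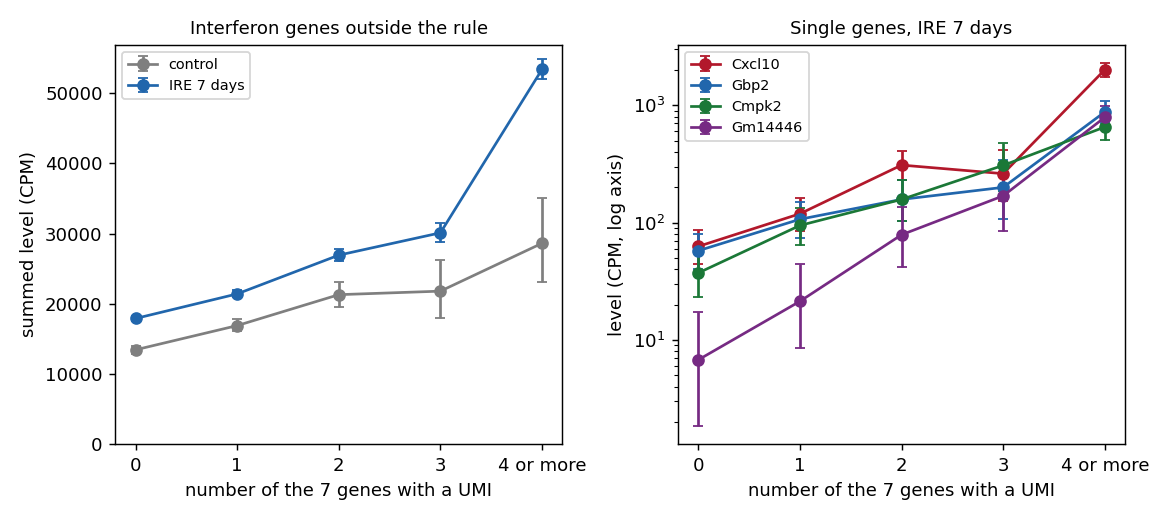
Left, summed level of the 101 interferon genes outside the rule (CPM) by the number of rule genes detected, in control and at 7 days. Right, 4 single genes at 7 days on a log axis. Bars are 95% Poisson intervals, and the sum reached 53391 in cells with 4 or more genes at 7 days.

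The genes of the pathway were then read by role, at 7 days. Interferons themselves were close to absent, with 2 UMIs of Ifnb1, 2 of Ifna2 and 32 of Ifng in all cells of the library and 2 UMIs of Ifng in members. Ifng, the interferon of T and NK cells, stood at 269.5 CPM in T cell barcodes (11 UMIs) and 6.39 in gated neutrophils (8 UMIs). None of the 7 receptors and kinases tested was past 2-fold: Ifnar1 and Ifnar2, the chains of the type I receptor, had ratios of 0.655 (0.392 to 1.06) and 1.09 (0.786 to 1.50), Jak1 of 1.21 (0.956 to 1.53) and Ifngr1 of 0.760 (0.536 to 1.06). Among the transcription factors Stat2 stood at 189 CPM in members and 42.3 in comparison cells (4.47, 2.77 to 7.41) and Nmi, a Stat-interacting protein, at 201 and 88.0 (2.28, 1.57 to 3.35), with a ratio of 1.84 for Nmi when cells needed 300 genes. Irf9, the DNA-binding part of the complex, stood at 165 and 117 (1.41, 0.974 to 2.04, and 0.758 after thinning, with 5 UMIs in members), Irf2 at 261 and 227 and Irf8 at 120 and 127.

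Sensors of foreign nucleic acid were 10 of 13 at least 2-fold higher, with a median ratio of 3.48. The PYHIN genes Ifi205 (540 and 77.9 CPM, ratio 6.94), Mnda (811 and 159, ratio 5.09) and Ifi203 (684 and 157, ratio 4.35) led, followed by Ifih1, which senses long double-stranded RNA (399 and 102, ratio 3.93). Aim2, the sensor of cytosolic DNA that forms an inflammasome, stood at 90.1 and 86.3, and the adaptor Myd88 at 135 and 102. PYHIN, Ifit, Oas, Slfn, Gbp and class I genes are families of similar sequence, so that the split of reads among close copies is uncertain. Antiviral effectors were 16 of 25 at least 2-fold higher. Gm14446 had 105 UMIs in members and 4 in comparison cells (ratio 46.6, 17.7 to 174). Whether Gm14446 shares reads with the Ifit genes of the rule was not tested. Cmpk2 had 113 and 22 UMIs (9.11, 5.73 to 15.1) and Mx1, a GTPase, 85 and 21 (7.18, 4.41 to 12.2). Oasl1, of the oligoadenylate synthetase family, had 120 and 38 (5.60, 3.86 to 8.29). The membrane protein Ifitm6 stood at 591 and 665 CPM (0.889, 0.745 to 1.06), with a ratio of 1.52 after thinning.

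Genes of Isg15 conjugation and release were 6 of 7 at least 2-fold higher. Usp18, which removes Isg15 and dampens the type I receptor, stood at 324 and 50.8 CPM (6.38, 4.23 to 9.91), and the conjugating enzyme Ube2l6 at 117 and 44.0 (2.66, 1.58 to 4.55), with a ratio of 1.18 once cells with 2 markers of another class were left out. Among other type I genes 19 of 30 were past 2-fold, led by Phf11b (9.24), Phf11d (6.61), the nucleotidase Nt5c3 (4.85) and Epsti1 (4.61), with Slfn2 at 1.20 and Ifi27 at 0.830. Of the GTPases that interferon gamma strongly induces, 5 of 6 were past 2-fold. Gbp2 stood at 387 and 57.6 (6.73, 4.58 to 10.1), Gbp3 at 162 and 27.1, Ifi47 at 312 and 54.2, and Irgm1, which acts on vacuoles of pathogens, at 267 and 89.7. The promoter table held 11 of the 20 listed GTPase genes, tested or not, and the ISRE core was found upstream of 10 of them. It held 7 of the 11 listed Isg15 conjugation genes, of which 0 had the core, and had no entry for Usp18. Over all interferon genes outside the rule, the core stood upstream of 13 of the 34 genes past 2-fold with an entry and of 3 of the 19 tested genes under it.

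Antigen presentation by class I molecules was higher by a smaller ratio, with 4 of 15 genes past 2-fold and a median ratio of 1.70. The inducible proteasome subunits Psmb8, Psmb9 and Psmb10 had ratios of 2.35, 2.11 and 2.09 (1.49 and 1.55 for Psmb9 and Psmb10 when cells needed 300 genes), H2-T22 of 2.64, and H2-Q7 and H2-Q6 of 1.07 and 1.04. Cxcl10, the chemokine that draws activated T cells, stood at 823 CPM in members and 62.6 in comparison cells (13.1, 9.29 to 19.1), and was detected in 20.1% and 3.16% of cells. Ccl5 stood at 396 and 266 (1.49, 1.17 to 1.89). None of the 4 genes tested in the list of feedback inhibitors was past 2-fold. Socs3, an inhibitor of Jak signalling, stood at 108 and 135 CPM and Ptpn6, a phosphatase, at 429 and 447. Usp18, which also dampens the type I receptor, was listed with Isg15 conjugation and had a ratio of 6.38.

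**Figure D5:**
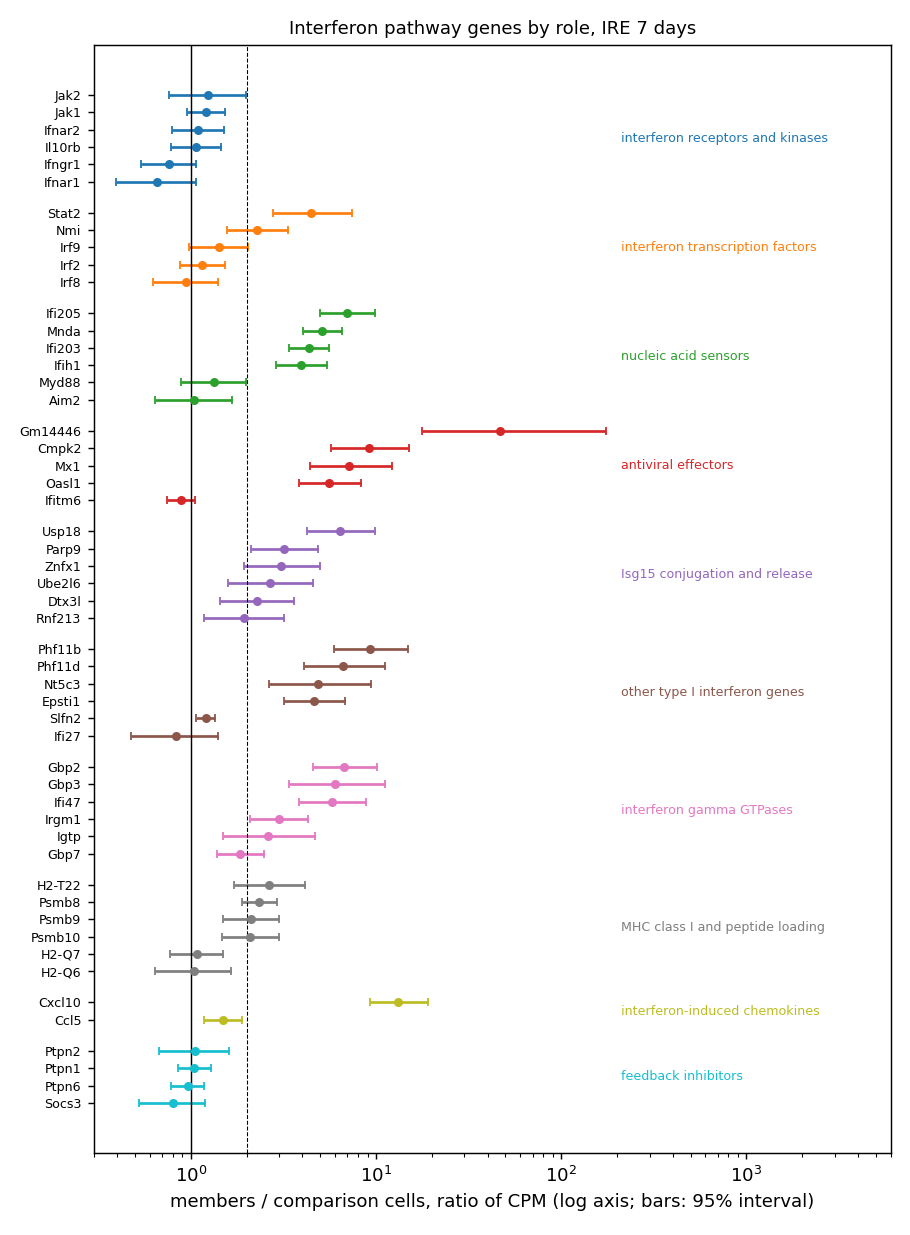
Ratio of members to comparison cells at 7 days (horizontal axis, log) for named genes with large and small ratios in each role, with 95% conditional binomial intervals as bars. Receptors, kinases and the genes listed as feedback inhibitors lie around 1, and Gm14446 and Cxcl10 have the largest ratios at 46.6 and 13.1. Usp18, which dampens the type I receptor, is drawn with Isg15 conjugation.

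Some markers of mononuclear phagocytes were higher in members. At 7 days, classical monocyte markers were 2753 CPM in members and 1711 in comparison cells (1.61, 1.47 to 1.76), with none of the 6 at 0. Ly6c2, the antigen of inflammatory monocytes, had a ratio of 2.68, Ly86 of 2.29 and Ccr2, the receptor that guides monocytes, of 1.20. A large part of the monocyte sum was Ly6c2. It held 127, 70 and 209 of the 917 UMIs, in members with 2, 3 and 4 or more rule genes. In comparison cells it held 269 of 1011. Whether these UMIs came from monocytes was not tested. Kupffer cell markers had a ratio of 1.70 (1.45 to 1.99) and macrophage markers of 0.824 (0.774 to 0.877), although 5 of the 6 macrophage markers had ratios above 1, with a median of 1.51, C1qc at 2.48 and Arg1 at 0.628. At least 2 classical monocyte markers were found in 29.8% of members and 16.2% of comparison cells. When all cells with 2 markers of any other class were left out, 274 members and 779 comparison cells remained, the ratio of the 101 interferon genes was 1.87, and 29 of them were past 2-fold. Cxcl10 then had a ratio of 7.33 and Gbp2 of 8.07, whereas Ccl5 went from 1.49 to 0.703. The part of these cells in the result was otherwise not tested. The other 10 marker lists summed to between 1 and 93 UMIs in members (up to 279 CPM) and between 1 and 126 in comparison cells (up to 213 CPM). At 0 in members were 2 of 6 markers of NK cells (Ncr1 and Klrb1c), 1 of 6 of B cells (Ms4a1) and 2 of 6 of conventional dendritic cells (Xcr1 and Clec9a). The same held for 2 of 6 markers of plasmacytoid dendritic cells, 5 of 6 of mesenchymal cells, 3 of 6 of mast cells and basophils and 3 of 4 of eosinophils. The other markers of these lists were detected in members, and of T cell, endothelial cell and hepatocyte markers 0 of 6 were at 0. In control, Kupffer cell markers were 6323 and 1037 CPM (6.09, 4.94 to 7.54), so that the 35 members there held more Kupffer cell RNA than their comparison cells.

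Outside the interferon lists, the 10 genes with the largest ratios included further PYHIN genes. Pydc3 (165 and 16.9 CPM, ratio 9.75), Gm4955 (255 and 28.8, 8.87) and Pydc4 (267 and 60.9, 4.38) stood with Ccl12, a monocyte-attracting chemokine (4.46), Slamf7, a receptor of leukocytes (4.06), the long noncoding RNA Gm13822 (3.55), Ccdc25 (3.06), Fgl2, a fibrinogen-like protein of phagocytes (2.99), Mdfic (2.98) and the long noncoding RNA AW112010 (2.96). AW112010 had a ratio of 0.727 once cells with 2 markers of another class were left out, and Ccl12 and Fgl2 then had 4.30 and 3.04, while Slamf7 had 1.29 after thinning, with 3 UMIs in members. The 10 smallest ratios rested on few UMIs. Hbb-bs, a haemoglobin chain, had 8 UMIs in members and 68 in comparison cells (0.209), in 0.423% and 0.744% of cells, and Ckap4, Kdelr2 and Ccdc47, proteins of the endoplasmic reticulum and Golgi, had 0.336, 0.417 and 0.433. The other 6, A630007B06Rik, Smim14, Tmem120a, Hnrnph1, 2010005H15Rik and Ing2, had 45 to 80 UMIs in comparison cells, with ratios from 0.413 to 0.461. With 3 neutrophil genes per cell, Hbb-bs had 0.927 on 1 and 2 UMIs, and Ckap4, Kdelr2, Ccdc47, Hnrnph1 and 2010005H15Rik had 0.541 to 0.674.

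Genes of neutrophil function were mostly lower in members, and by less than 2-fold. Calprotectin and stefins summed to 5.99% of UMIs in members and 8.34% in comparison cells (0.718, 0.706 to 0.730), with S100a8 at 27989 and 40000.2 CPM and S100a9 at 22349 and 31973. Thinned to 300 UMIs the ratio of this list was 0.918. Of 9 granule genes tested, 1 was at least 2-fold lower: Ngp, a granule protein of immature neutrophils, stood at 207 and 442 (0.469, 0.354 to 0.613), but at a ratio of 1.22 when cells needed 300 genes. Lcn2 had 0.690, Hp, haptoglobin, 0.938 and Lyz2, lysozyme, 0.954, whereas Cybb, the catalytic chain of the oxidase, was higher at 432 and 229 (1.89, 1.49 to 2.41). At least 1 UMI of Camp, Ltf or Ngp was found in 6.77% of members and 10.4% of comparison cells, and in 5.39% and 7.87% after thinning.

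Neutrophil cytokines and chemokines summed to 20776 and 26839 CPM (0.774, 0.752 to 0.796), and to a ratio of 0.985 (0.930 to 1.04) after thinning. Cxcl2, which recruits neutrophils, stood at 6124 and 8992 (0.681), Cxcl3 at 2065 and 3385 (0.610), Ccl6 at 4335 and 5464 (0.793), Osm, a cytokine of the interleukin-6 family, at 285 and 511 (0.558) and Ptgs2, the inducible cyclooxygenase, at 69.0 and 132 (0.523, and 1.21 after thinning). By the number of rule genes, Cxcl3 stood at 3385 CPM with 0 of them, 2823 with 1, 2712 with 2, 2272 with 3 and 895 with 4 or more. The intervals with 1 and 2 genes overlapped, as did those with 2 and 3. Cxcl3 was detected in 52.3%, 53.8%, 50.8%, 54.7% and 35.9% of these cells. At least 1 UMI of Cxcl3 or Ccl4 was found in 64.9% of members and 63.3% of comparison cells, and in 47.2% and 53.8% after thinning, so that the cells with these chemokines and the members overlapped widely.

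None of the 20 chemotactic and cytokine receptors and 10 adhesion genes tested was past 2-fold. Over all genes tested, 4.13% were past 2-fold higher and 0.841% lower, so that a count of 0 is close to the share over all genes. Cd14, a coreceptor for lipopolysaccharide, stood at 1729 and 2759 (0.627), Fpr1, the receptor for formylated peptides, at 195 and 344 (0.568), Tlr4 at 72.0 and 132 (0.546), Clec4d at 970 and 1234 (0.786, and 1.08 after thinning) and Fcer1g, a signalling chain of Fc receptors, at 3260 and 2999 (1.09). Itgam, the alpha chain of the integrin Mac-1, stood at 841 and 1148 (0.732, 0.635 to 0.843) and its partner Itgb2 at 357 and 357 (1.00, 0.792 to 1.26). Cd24a stood at 315 and 496 (0.636, 0.504 to 0.797), Cd44 at 742 and 862 (0.861), Tln1, talin, at 507 and 559 (0.908) and Cxcr4, the receptor that retains neutrophils in marrow and was under the 50 UMIs needed, had 10 and 36 UMIs (0.493, 0.218 to 1.01). For Itgam and Cd24a the interval lay below 1, and for Itgb2 and Cxcr4 it included 1.

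Of 14 genes of survival and death, 2 were at least 2-fold higher. Casp1 and Casp4, the inflammatory caspases, had ratios of 2.52 (1.70 to 3.78) and 2.496 (1.48 to 4.25). Casp1 had 1.98 with 3 neutrophil genes per cell and Casp4 1.65 without cells of 2 other markers. Mcl1, a survival factor of neutrophils, had a ratio of 0.928, Bcl2a1b 1.14 and Cflar 1.06. Heat shock genes had a median ratio of 1.14 with none of 8 past 2-fold: Hspa8 stood at 1297 and 923 (1.41), Hsp90ab1 at 2020 and 1605 (1.26), Dnaja1 at 510 and 379 (1.35) and Hspa5 at 1543 and 1525 (1.01), and Hspa8 and Hsp90ab1 had 0.822 and 0.920 after thinning. Immediate early genes had a median ratio of 0.861 over 12 genes, with Egr1 at 0.728, Btg2 at 0.797 (1.20 after thinning), Ier3 at 0.828, Jun at 0.839 and Nfkbia at 0.939. Genes of low oxygen and glycolysis had a median of 0.929 over 17 genes, among them Slc2a1, a glucose transporter, at 0.698, Egln3 at 0.768, Gapdh at 0.916, Aldoa at 0.937 and Pkm at 0.992.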

How the data were processed

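Drop-seq was run on 3 pooled liver libraries. Per the file headers, the authors tallied UMIs for every gene in every barcode (Drop-seq tools, edit distance of 1, minimum mapping quality of 10, sense strand, coding and untranslated bases) and deposited the raw counts. The submitters' processing notes name STAR 2.5.2a and build hg19, a human build, although the gene symbols are those of the mouse, so that no coordinates were taken from the counts. Promoter sequences came from RefSeq GRCm38.p6, matched by symbol. Members and gene lists were chosen with earlier results of these data known.

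UMIs were summed over the cells of a set and divided by the set's total, as counts per 1000000 UMIs (CPM). Ratios have conditional binomial intervals, sums Poisson intervals and shares Clopper-Pearson intervals, all at 95%. Genes needed 50 UMIs in members and comparison cells together, and 2-fold defined a call. No p-value was computed, since cells are not replicates. Named genes were the 4 largest and 2 smallest ratios of each interferon list, the 10 largest and 10 smallest of all others, and for neutrophil lists the 3 with most UMIs and the 2 farthest from 1. Some genes that this rule names are not reported here. Itgam, Itgb2, Cxcr4 and Cd24a were added as genes of interest to the study. Genes singled out from the marker lists (Ly6c2, Ly86, Ccr2, C1qc and Arg1) were chosen after their values were seen. Doublets were not called: cells with 2 markers of another class were left out as an alternative. Thinning drew 300 UMIs per cell with seed 1, which left out 4, 0 and 88 shallower gated cells in control, at 1 day and at 7 days. The computation of the intervals was checked on simulated data, where 96.2% of 2630 intervals held the true ratio at 7 days. The simulated sums were Poisson counts without spread between cells. The check therefore does not show how well the intervals hold for UMIs that cluster in cells. Python with numpy 2.4.6 and scipy 1.17.1 was used. Of 14 alternative settings, 2 were chosen after seeing the data: leaving out barcodes found in 2 libraries, and keeping gated cells whose neutrophil UMIs outnumber those of macrophage, Kupffer cell and monocyte markers.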

Additional observations from a re-analysis of the deposited data

Results flagged for a closer look

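Barcodes under 200 genes are outside the comparisons above, and some of them also met both gates: 271 at 7 days and 13 in control, both above the limit of 3 that a count of 0 allows, and 0 at 1 day. They were found among 2818, 267 and 27 barcodes under 200 genes that met the neutrophil gate at 7 days, in control and at 1 day. With every deposited barcode kept, members were 15.2% of gated barcodes at 7 days and 8.33% in control.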

How the results depend on the processing

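No paired analysis was possible because each condition has 1 library and no test was run. Leaving out neighbouring barcodes (there were none), barcodes found in 2 libraries or cells over 20% mitochondrial UMIs moved no member share and no summed ratio beyond its interval, and no count of genes by over 1.5 times. None of the settings turned the direction of the 4 summed ratios recomputed (interferon genes outside the rule, calprotectin and stefins, granule proteins, cytokines and chemokines, at 7 days). After thinning, however, the intervals of granule proteins (0.854 to 1.04) and of cytokines and chemokines (0.930 to 1.04) included 1. Summed ratios of marker lists and of the other libraries were not recomputed. The cause of the changes was not tested. The settings on barcodes of 2 libraries and on neutrophil UMIs that outnumber others were chosen after seeing the data.

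Members were 22.7% of gated cells at 7 days, and 28.8% with 300 genes per barcode, 15.2% with every barcode, 10.7% with 3 interferon genes, 12.5% after thinning, 19.5% without cells of 2 other markers and 20.3% without the deepest 5% of barcodes. With 3 interferon genes they were 2.27% in control and 4.26% at 1 day, and after thinning 4.49% in control. At 1 day, no gated cell was left without cells of 2 other markers, so that no value is given. The ratio of the interferon genes outside the rule, 1.99, was 1.93 with 3 neutrophil genes, 2.48 with 3 interferon genes, 2.26 after thinning and 1.87 without cells of 2 other markers. Of these genes, 46 were past 2-fold, and 26 with 3 neutrophil genes, 20 after thinning and 29 without cells of 2 other markers, or 67.6%, 60.5%, 62.5% and 58.0% of the 68, 43, 32 and 50 tested. Over all genes 108 were past 2-fold higher, and 193 with every barcode, 66 with 3 neutrophil genes, 43 after thinning, 59 without cells of 2 other markers, 253 with a minimum of 20 UMIs and 65 with 100 UMIs, which is 3.82 to 5.80% of the genes tested in each. The 22 genes past 2-fold lower became 12 with 300 genes, 57 with every barcode, 86 with 3 interferon genes, 37 after thinning, 208 with 20 UMIs and 3 with 100 UMIs (0.207 to 4.26% of those tested).

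The ratio of calprotectin and stefins, 0.718, was 0.891 with 300 genes, 0.653 with every barcode, 0.694 with 3 neutrophil genes, 0.657 with 3 interferon genes, 0.918 after thinning, 0.837 without cells of 2 other markers, 0.826 without the deepest 5%, 0.833 with comparison cells weighted by depth and 0.774 where neutrophil UMIs outnumbered those of macrophages and monocytes. That of granule proteins, 0.871, was 0.918 with every barcode, 0.944 after thinning and 0.913 where neutrophil UMIs outnumbered the others. That of cytokines and chemokines, 0.774, was 0.734 with every barcode, 0.744 with 3 neutrophil genes, 0.689 with 3 interferon genes, 0.985 after thinning, 0.902 without cells of 2 other markers, 0.875 without the deepest 5%, 0.810 with depth weights and 0.809 where neutrophil UMIs outnumbered the others. Among single genes whose interval did not include 1, thinning turned the direction for Btg2 (1.20), Clec4d (1.08), Hsp90ab1 (0.920), Hspa8 (0.822) and Ptgs2 (1.21), a minimum of 300 genes did so for Ngp (1.22), and leaving out cells of 2 other markers did so for AW112010 (0.727) and Ccl5 (0.703). Of the 118 genes that the naming rule chose, thinning turned another 13 whose interval included 1, and the other settings 0 to 11. Of the 42 past 2-fold higher, 0 to 4 lost that call under a setting, and of the 12 past 2-fold lower 0 to 7. The 35 members of control and 6 at 1 day limit what their values can show.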
